A study of Homo sapiens with 6 samples.

Results

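The genes described here are BCR, ABL1 and 8 genes whose products act next to or downstream of the BCR-ABL1 kinase, namely CRKL, GAB2, GRB2, SOS1, SHC1, LYN, PIM1 and PTPN11. They were chosen by gene symbol and are 10 of the 31142 genes in the table. Each symbol stood under a single gene identifier, so that the rule for symbols with several identifiers, which takes the one with the higher mean FPKM, had nothing to decide. All 10 passed the filter on low values, a mean of at least 1 FPKM over the 6 libraries, which 10942 genes passed. FPKM are fragments counted per kilobase of transcript and scaled to the mapped fragments, so that levels can be set side by side between genes of different length. The cells are labelled SKM-1, a human acute myeloid leukemia line that arose from myelodysplastic syndrome (MDS). They were stably transduced with a lentivirus in which a ubiquitin promoter drives FLAG-tagged U2AF1, carry green fluorescent protein and a puromycin resistance gene from the same vector, and still have their own U2AF1. One group of 3 libraries expressed the S34F mutant of this splicing factor (S34F) and the other group of 3 libraries expressed the wild type (WT), both harvested at 96 h. The WT samples carry a prefix that the study also uses for negative controls, and its sequencing methods speak of a vehicle control. The titles of these samples, which name wild-type U2AF1, decided the group. The study calls the RNA samples independent, but no label says that replicates came from separate cultures. The p-values therefore measure the spread between these samples, which may be technical.

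BCR-ABL1 is the fusion kinase of chronic myeloid leukemia (CML), made when the 5′ part of BCR on chromosome 22 is joined to ABL1 on chromosome 9. The phosphorylated BCR part binds GRB2, which brings in SOS1 and GAB2. SOS1 loads RAS with GTP, while GAB2 recruits the phosphatase SHP2, the product of PTPN11, and phosphoinositide 3-kinase. CRKL is a major direct substrate of the kinase, SHC1 is a further adaptor towards RAS, LYN is a SRC family kinase that works beside it, and PIM1 is a survival kinase transcribed under STAT5. In normal myeloid and erythroid cells the same adaptors carry the signals of cytokine receptors.

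The most common junction in CML joins exon 14 of BCR to exon 2 of ABL1. Both exon ends are shown because values per gene add up every fragment of a gene and do not say whether any fragment crosses from one to the other. They were read on the plus strand from the GENCODE 29 transcripts (GRCh38), 5′ to 3′, and capitals mark the 10 bases next to the junction. The BCR stretch is the end of exon 14 of 23 in ENST00000305877, chr22:23290384-23290413. The ABL1 stretch is the start of exon 2 of 11 in ENST00000318560, chr9:130854064-130854093.
BCR exon 14 end: actcagccactggatttaagCAGAGTTCAA
ABL1 exon 2 start: AAGCCCTTCAgcggccagtagcatctgact
Whether the fusion transcript is present in these libraries was not tested, since the values used are per gene.

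The libraries held approximately 20.5 to 24.8 M fragments in S34F and 24.7 to 26.1 M in WT. The libraries numbered 3 stood apart from the others, with scores of 35.1 in S34F and 12.9 in WT on a first principal component that held 47.9% of the variance, while the other 4 libraries lay between -16.3 and -7.71. U2AF1, the gene that was transduced, was at 9.24, 9.48 and 9.18 FPKM in S34F and at 8.67, 8.70 and 7.65 FPKM in WT. Values per gene do not separate the mutant from the wild-type allele or from the near-identical copy U2AF1L5, which was at 9.44, 9.78 and 9.18 FPKM in S34F and at 10.04, 9.32 and 9.22 FPKM in WT, so that they do not check the labels. The labelled line was compared with cell type markers. Of 14 monocytic markers in the table, 9 had a mean under 1 FPKM, and MPO, S100A8, FCN1 and IRF8 were at or under the level of 3 fragments in every library. Their summed level ran from 58.0 to 84.1 FPKM in S34F and from 80.1 to 99.4 FPKM in WT, and came mainly from CD68, LYZ and SPI1. All 13 erythroid markers averaged 1 FPKM or more, and their summed level ran from 12220 to 13980 FPKM in S34F and from 11800 to 12930 FPKM in WT. Of 4 megakaryocytic markers the summed level lay between 1.73 and 2.70 FPKM, and of 5 lymphoid markers between 8.94 and 15.2 FPKM in S34F and 16.8 and 17.0 FPKM in WT. The part of these differences in the values below was not tested, and in bulk RNA fewer cells of a type and less RNA per cell cannot be told apart.

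The 10 genes spanned a wide range of levels. PIM1 had the highest mean over the 6 libraries, 109 FPKM, followed by CRKL with 93.6, ABL1 with 43.5, GRB2 with 26.3, SHC1 with 23.1, LYN with 15.4, GAB2 with 11.3, PTPN11 with 10.1, BCR with 7.28 and SOS1 with 1.33 FPKM. Among all genes tested, PIM1 stood at percentile 96.6 of the mean level, CRKL at 95.9, ABL1 at 91.3 and SOS1 at 8.21. In this order the ranges over the 6 libraries overlapped between PIM1 and CRKL, ABL1 and GRB2, GRB2 and SHC1, GAB2 and PTPN11, and PTPN11 and BCR. They did not overlap between CRKL and ABL1, SHC1 and LYN, LYN and GAB2, or BCR and SOS1. The levels are a description, with no test. SOS1 lay just inside the filter of 1 FPKM, and none of the 10 lay outside it. For each gene the level of 3 fragments, counting error only, was at most 0.0492 FPKM, far under the lowest library of any of them.

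**Figure D1:**
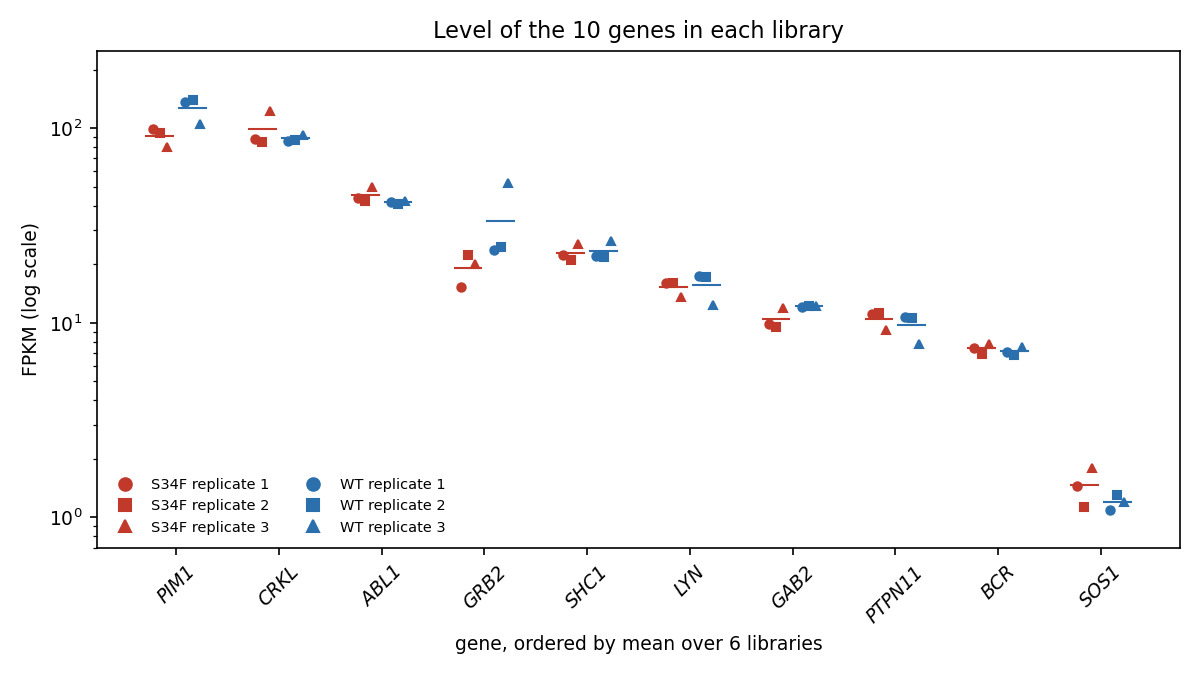
FPKM (log scale) of the 10 genes in each library, ordered by their mean, with S34F in red and WT in blue, a marker shape for each replicate number and a line at each group mean. PIM1 and CRKL lay near 100 FPKM and SOS1 near 1 FPKM, and the libraries numbered 3 were often at the edge of their group.

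BCR (ENSG00000186716, GRCh38 chr22:23179704-23318037, plus strand) gives the fusion its promoter and 5′ exons. It was at 7.47, 6.96 and 7.77 FPKM in S34F and at 7.07, 6.86 and 7.54 FPKM in WT. The groups overlapped, and the 2 lowest libraries were those numbered 2. The means were 7.40 ± 0.412 FPKM in S34F against 7.16 ± 0.350 FPKM in WT (SD, n = 3 each). On the log2(FPKM + 1) scale, which understates the change of low genes, the log2 fold change of S34F over WT was 0.04 (95% interval -0.19 to 0.28, unadjusted p = 0.684 and adjusted p = 1 from limma). The BCR pseudogenes were low, with means of 0.00446 FPKM for BCRP1, 0.0426 for BCRP2, 0.386 for BCRP3 and 0.428 for BCRP8. The pseudogenes FBXW4P1 and RN7SL263P lie in BCR introns, on the same and the opposite strand, at means of 3.77 and 1.73 FPKM. Whether the counting used strand is not given in the sources used here.

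ABL1 (ENSG00000097007, GRCh38 chr9:130713946-130887675, plus strand) encodes the tyrosine kinase. It was at 43.9, 42.1 and 49.9 FPKM in S34F and at 41.6, 40.9 and 42.4 FPKM in WT. S34F replicate 3 was the highest of the 6, and S34F replicate 2 lay within the WT range. The means were 45.3 ± 4.06 FPKM in S34F against 41.7 ± 0.755 FPKM in WT (SD, n = 3 each), with a log2 fold change of 0.12 (95% interval -0.13 to 0.36, adjusted p = 1 from limma). Without S34F replicate 3 it was 0.05. In all 3 pairs of equally numbered libraries ABL1 was higher in S34F, by 0.08, 0.04 and 0.23 on the log2 scale, and the same held for BCR, by 0.07, 0.02 and 0.04, although the log2 fold change of BCR was -0.019 under upper quartile scaling.

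In every library ABL1 exceeded BCR several-fold per kilobase. The ratio of ABL1 to BCR was 5.89, 6.05 and 6.42 in the S34F libraries and 5.89, 5.97 and 5.63 in the WT libraries. The groups overlapped, since WT replicate 2, with 5.97, lay above S34F replicate 1, with 5.89. The log2 ratio of BCR to ABL1, which does not depend on how a library is scaled, was -2.61 ± 0.0638 (SD, n = 3) in S34F and -2.54 ± 0.0444 (SD, n = 3) in WT. The difference was -0.07 (exact two-sided permutation p = 0.3, with 0.1 the smallest p that 3 against 3 libraries allow).

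The chromosomal surroundings of the 2 genes were read in the same libraries. Within 500 kb of BCR, 11 other protein-coding genes were in the table and 3 averaged 1 FPKM or more, CHCHD10 with 13.96, SMARCB1 with 3.34 and ZNF70 with 1.09. The protein-coding genes of the table in that window below BCR in coordinate all had means under 1 FPKM. Within 500 kb of ABL1, 14 other protein-coding genes were in the table and 6 averaged 1 FPKM or more, the highest being NUP214, a nuclear pore gene, with 30.7, and FAM78A with 20.2. ABL1 had a higher mean than any of these 14 neighbours. XKR3, a chromosome 22 gene that is chiefly known from testis, was at 5.29, 4.03 and 9.68 FPKM in S34F and at 4.75, 5.30 and 5.35 FPKM in WT, against 0.0866 FPKM for 3 fragments. The groups overlapped, and S34F replicate 3 was the highest. Its log2 fold change was 0.19 (adjusted p = 1 from limma). As background, the K562 line, which the study cultured beside SKM-1, comes from CML, carries BCR-ABL1 and is known for a NUP214-XKR3 fusion. The line from which the libraries came was not tested beyond these levels and the markers above.

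**Figure D2:**
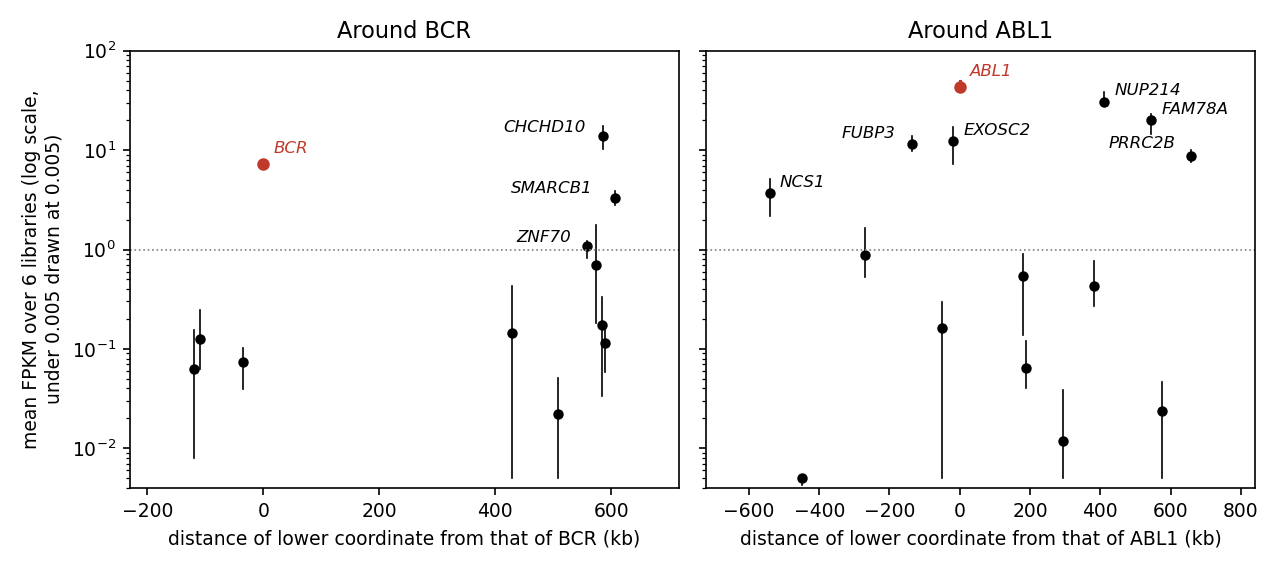
Mean FPKM over the 6 libraries (log scale, bars from the lowest to the highest library) of the other protein-coding genes within 500 kb of BCR and of ABL1, by the distance of their lower coordinate from that of the named gene. The dotted line is at 1 FPKM, and 3 such neighbours of BCR and 6 of ABL1 lay above it.

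Among the adaptors, GRB2 and GAB2 had lower levels in every S34F library than in any WT library, while CRKL, SHC1 and SOS1 overlapped between the groups. GRB2 (ENSG00000177885, GRCh38 chr17:75318076-75405709, minus strand) links phosphorylated receptors and BCR-ABL1 to SOS1. It was at 15.3, 22.4 and 19.98 FPKM in S34F and at 23.6, 24.4 and 52.2 FPKM in WT. WT replicate 3 stood far above the other 5 libraries, and the gap between the groups was small, from 22.4 to 23.6 FPKM. The means were 19.2 ± 3.62 FPKM in S34F against 33.4 ± 16.3 FPKM in WT (SD, n = 3 each). The log2 fold change was -0.68 (95% interval -1.43 to 0.06, unadjusted p = 0.0672 by limma, adjusted p = 1). The exact two-sided permutation p was 0.1, the smallest possible. Without WT replicate 3 the log2 fold change of GRB2 was -0.32 (unadjusted p = 0.125 from limma). Without WT replicate 1 or 2 it was -0.88 or -0.85 (unadjusted p = 0.0399 and 0.0483 from limma). In those fits, as in the fit with a replicate block (unadjusted p = 0.0379 from limma, adjusted p = 0.994), GRB2 passed both limits set for a called gene (more than 1.5-fold, unadjusted p under 0.05). In the same order, 67, 79 and 87 of all genes tested passed both limits in these fits. An unadjusted p under 0.05 from limma was found for 1.51%, 1.69% and 4.05% of all genes, beside 2.39% in the main fit.

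GAB2 (ENSG00000033327, GRCh38 chr11:78215297-78418348, minus strand) is the docking protein that GRB2 brings to the kinase. It was at 9.84, 9.47 and 11.97 FPKM in S34F and at 12.1, 12.2 and 12.3 FPKM in WT. The 3 WT libraries lay close together, and S34F replicate 3 came near to them while S34F replicates 1 and 2 lay lower. The means were 10.4 ± 1.35 FPKM in S34F against 12.2 ± 0.0793 FPKM in WT (SD, n = 3 each), with a log2 fold change of -0.22 (95% interval -0.49 to 0.06, unadjusted p = 0.106 and adjusted p = 1 from limma). Without S34F replicate 3 it was -0.31 (unadjusted p = 0.00648, adjusted p = 0.264 from limma). In that fit 10.6% of all genes tested had an unadjusted p under 0.05 from limma, beside 2.39% with all 6 libraries. The groups overlapped for GAB2 when libraries were scaled by their upper quartile.

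CRKL (ENSG00000099942, GRCh38 chr22:20917426-20953749, plus strand), whose phosphorylation is read in the clinic as a measure of BCR-ABL1 activity, was at 88.0, 85.4 and 122 FPKM in S34F and at 86.2, 87.1 and 92.6 FPKM in WT. Only S34F replicate 3 lay above the WT range, and S34F replicate 2 was the lowest of all. Its log2 fold change was 0.13 (95% interval -0.23 to 0.49, adjusted p = 1 from limma), and -0.03 without S34F replicate 3. RNA levels say nothing of the phosphorylation.

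SHC1 (ENSG00000160691, GRCh38 chr1:154962298-154974395, minus strand), which is phosphorylated and then binds GRB2, was at 22.3, 20.9 and 25.3 FPKM in S34F and at 22.1, 21.9 and 26.2 FPKM in WT. Both libraries numbered 3 were above the others of their group. Between the groups the log2 fold change was -0.03 (95% interval -0.32 to 0.26, adjusted p = 1 from limma). SHC1 shares exonic sequence with PYGO2 on the same strand, at a mean of 20.2 FPKM, so that the split of fragments between them depends on the counting.

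SOS1 (ENSG00000115904, GRCh38 chr2:38981396-39124345, minus strand), the exchange factor that loads RAS, was at 1.45, 1.13 and 1.81 FPKM in S34F and at 1.097, 1.31 and 1.21 FPKM in WT. S34F replicates 1 and 3 lay above the WT range and S34F replicate 2 within it. Its log2 fold change was 0.15 (95% interval -0.16 to 0.46, adjusted p = 1 from limma). It was 0.05 without S34F replicate 3 and 0.25 without S34F replicate 2.

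PTPN11 (ENSG00000179295, GRCh38 chr12:112418351-112509913, plus strand) encodes the phosphatase SHP2, which is bound by GAB2 and is needed for full activation of RAS. It was at 11.1, 11.3 and 9.16 FPKM in S34F and at 10.8, 10.6 and 7.76 FPKM in WT. The library numbered 3 was the lowest of each group, and each S34F library was above its WT partner of the same number. The log2 fold change was 0.11 (95% interval -0.26 to 0.48, adjusted p = 1 from limma). PTPN11 overlaps in exons with RPL6 on the opposite strand, a ribosomal protein gene with a mean of 222 FPKM, and without strand the fragments of the shared stretch cannot be told apart.

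LYN (ENSG00000254087, GRCh38 chr8:55879813-56014168, plus strand), the SRC family kinase, was at 16.0, 16.1 and 13.6 FPKM in S34F and at 17.3, 17.2 and 12.4 FPKM in WT. The libraries numbered 3 were again the lowest of each group. S34F over WT gave a log2 fold change of -0.03 (95% interval -0.40 to 0.34, adjusted p = 1 from limma).

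PIM1 (ENSG00000137193, GRCh38 chr6:37170203-37175426, plus strand), the serine/threonine kinase that is induced by STAT5 and promotes survival, was at 98.7, 94.9 and 80.4 FPKM in S34F and at 137, 140 and 105 FPKM in WT. The highest S34F library lay under the lowest WT library, and the library numbered 3 was the lowest of each group. The means were 91.3 ± 9.63 FPKM in S34F against 127 ± 19.5 FPKM in WT (SD, n = 3 each). The log2 fold change was -0.47 (95% interval -0.82 to -0.11, unadjusted p = 0.0167 by limma, adjusted p = 1). The exact two-sided permutation p was 0.1, the smallest possible. Within the pairs of equal number, which the data do not establish, the log2 differences were -0.46, -0.56 and -0.38, lower in 3 of 3. With the replicate block the unadjusted p was 0.00241 and the adjusted p 0.994 from limma. In that fit 4.05% of all genes tested had an unadjusted p under 0.05 from limma. In the main fit PIM1 ranked 88 by p among the genes tested. Without WT replicate 1 or 2 its unadjusted p from limma was 0.063 or 0.0641. Without WT replicate 3 its log2 fold change was -0.60 (unadjusted p = 0.00375 from limma), past the fold change limit of 1.5, and without both libraries numbered 3 it was -0.51 (unadjusted p = 0.000305, adjusted p = 0.106 from limma). In these last fits 3.18% and 16.9% of all genes tested had an unadjusted p under 0.05 from limma, beside 2.39% in the main fit.

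**Figure D3:**
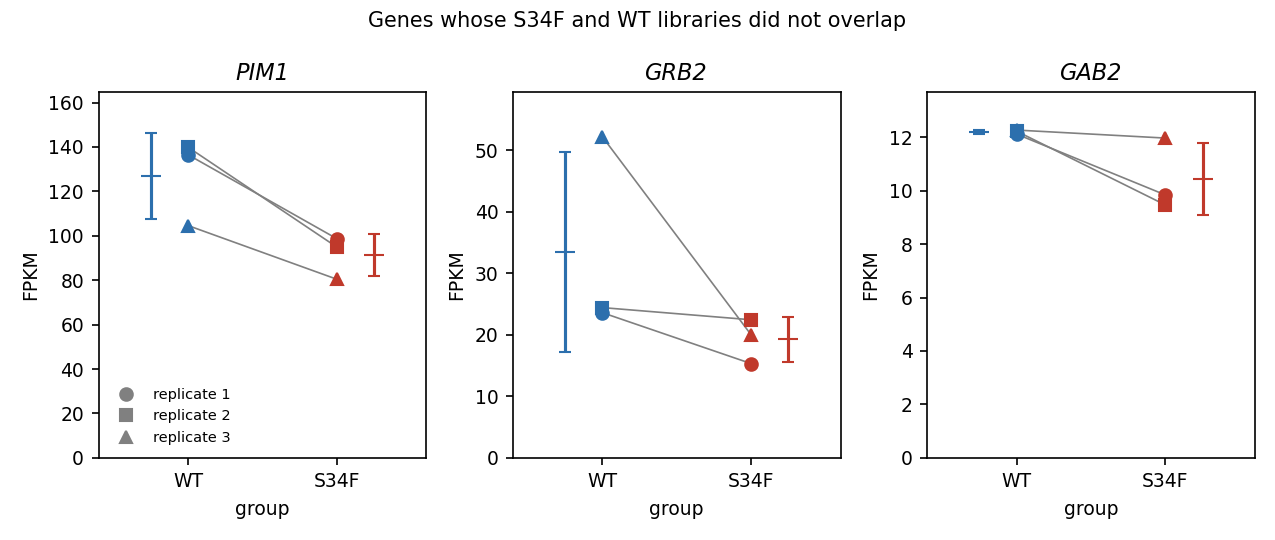
FPKM of PIM1, GRB2 and GAB2 in each library, with lines joining S34F and WT libraries of the same replicate number and bars for the group mean ± SD (n = 3). Every S34F library lay under every WT library for these 3 genes, GRB2 had 52.2 FPKM in WT replicate 3, and GAB2 had 11.97 FPKM in S34F replicate 3.

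The stretch before the PIM1 start is shown because PIM1 was the one gene of the 10 with an unadjusted p under 0.05. The 250 bases are from RefSeq (GRCh38.p14), chr6:37169902-37170151, plus strand, 5′ to 3′, with capitals for GGGCGG, the core of the GC box, on either strand.
PIM1 upstream: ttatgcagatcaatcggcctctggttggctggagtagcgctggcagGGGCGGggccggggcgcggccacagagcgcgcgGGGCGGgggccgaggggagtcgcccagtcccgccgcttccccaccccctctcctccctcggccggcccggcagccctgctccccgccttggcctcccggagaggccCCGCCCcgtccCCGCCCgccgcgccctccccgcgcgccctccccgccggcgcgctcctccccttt
It holds 4 such boxes at a GC content of 79.6%. RefSeq promoter windows of 300 bases, from 250 before to 50 after a start, were matched for 8 of the 10 genes and gave 11 windows. GAB2, SOS1 and SHC1 had 2 windows each, with a GC content from 40% to 84%. The single windows of BCR, ABL1, CRKL, GRB2 and PIM1 had 71.7% to 79.7%, against a median of 58.7% over all windows. GGGCGG was in 7 of the 11, against 45% of all 35116 windows. On both strands, TTCNNNGAA, a palindrome that STAT5 can bind and that cannot overlap with GGGCGG, was in 0 of the 11, against 7.66% of all windows. These matches describe letters in short windows only, with no adjustment for GC content. LYN and PTPN11 had no window in the table used.

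For the comparison as a whole, 0 of the 10 genes differed more than 1.5-fold at an unadjusted p under 0.05 in limma, against 0.585% of the 10942 genes tested. Of the 10, 0 had an adjusted p under 0.05, as had 0% of all genes tested. With an unadjusted p under 0.05 there was 1, PIM1, against 2.39% of all genes. The groups did not overlap for 3 of the 10, PIM1, GRB2 and GAB2, against 7.38% of all genes, and all 3 were lower in S34F, as were 3.73% of all genes. Of the 10 log2 fold changes 5 were positive and 5 negative, with a median of 0.01, beside a median of 0.01 over all genes tested. Without both libraries numbered 3 the groups did not overlap for 6 of the 10, against 51.5% of all genes. The intervals for BCR, ABL1, CRKL, SHC1, LYN, PTPN11, SOS1 and GAB2 all lay within 1.5-fold in either direction on this scale, and those for GRB2 and PIM1 reached beyond it.

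**Figure D4:**
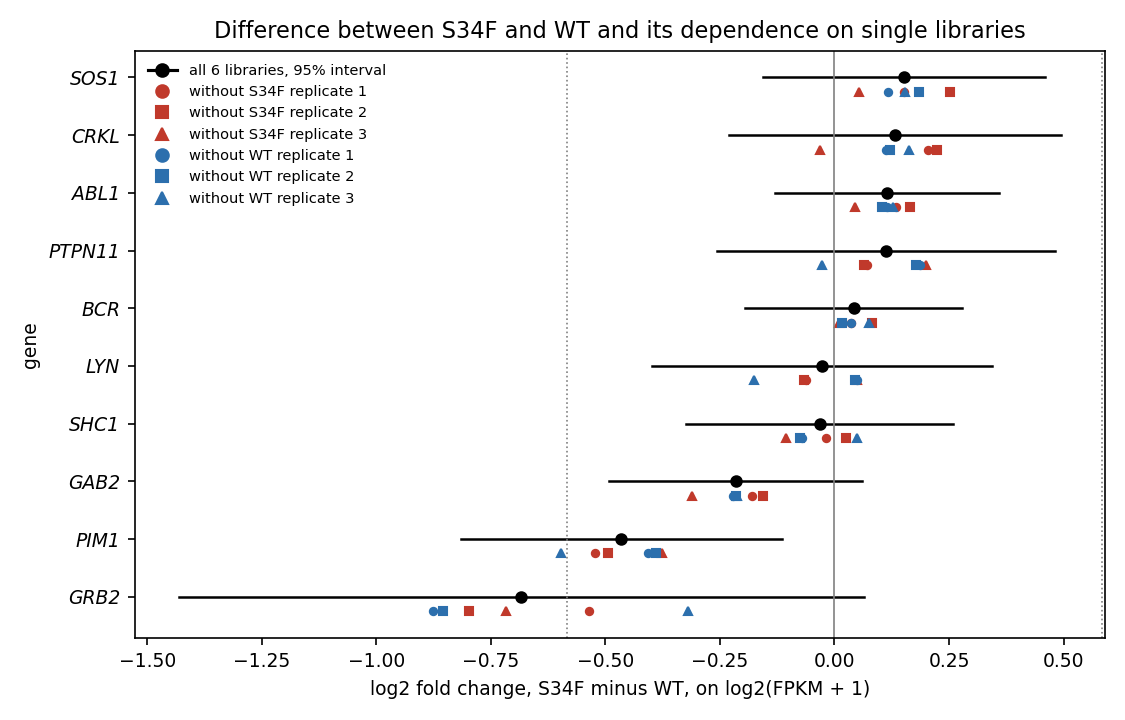
Log2 fold change of S34F over WT on log2(FPKM + 1) for the 10 genes (black points, limma with 95% intervals), with the values when 1 library is left out below each (red and blue markers). Dotted lines mark a fold change of 1.5, and GRB2 moved most, from -0.88 without WT replicate 1 to -0.32 without WT replicate 3.

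The rest of the pathway was read from a list of 62 further signalling genes, of which 42 passed the filter. Of these, 0 had an unadjusted p under 0.05 from limma, 21 had a positive and 21 a negative log2 fold change, and the median was -0.0023. Of all genes tested, 5973 had a positive and 4969 a negative log2 fold change. The groups did not overlap for 2 of the 42, NRAS and CISH, or 4.76%, beside the 7.38% of all genes. Of 8 RAS-MAPK genes tested, 7 had a positive log2 fold change, with a median of 0.09, while 5 were positive under upper quartile scaling, with a median of 0.03. Of 7 genes for STAT5 and its targets 5 were negative, STAT5A and STAT5B among them, with a median of -0.09. The targets BCL2L1 and CCND2 were positive, at 0.06 and 0.08. Under upper quartile scaling 6 of the 7 were negative, with a median of -0.15, but that scaling also shifted the median of all genes to -0.04. Without both libraries numbered 3, 4 were negative and 3 positive, with a median of -0.09. The medians were -0.01 for 12 adaptors and docking proteins, 0.04 for 6 genes of PI3K-AKT signalling, which became -0.03 under upper quartile scaling, and -0.02 for 9 feedback regulators and phosphatases.

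NRAS, a RAS GTPase that SOS1 loads, was at 22.1, 23.9 and 28.3 FPKM in S34F and at 21.0, 21.99 and 21.1 FPKM in WT. The groups did not overlap, by 21.99 against 22.1 FPKM, with a log2 fold change of 0.20 (adjusted p = 1 from limma). CISH, an inhibitor of cytokine signalling that like PIM1 is transcribed under STAT5, was at 14.1, 13.9 and 13.5 FPKM in S34F and at 18.3, 17.2 and 14.5 FPKM in WT. All S34F libraries of CISH were lower, with a log2 fold change of -0.25 (unadjusted p = 0.073 and adjusted p = 1 from limma).

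STAT5A, the STAT5 gene with the most negative log2 fold change of the list, -0.38 (adjusted p = 1 from limma), was at 34.4, 20.5 and 16.2 FPKM in S34F and at 33.99, 32.3 and 23.6 FPKM in WT. S34F replicate 1 was the highest of all 6 libraries, so that the groups overlapped. NCK2, an adaptor towards the actin skeleton, had a log2 fold change of -0.24 and ranged from 4.40 to 10.1 FPKM. CRK, the paralog of CRKL, had the largest positive value of the list, 0.22, and was at 6.82, 7.56 and 10.7 FPKM in S34F and at 6.93, 7.29 and 6.52 FPKM in WT. As for CRKL, S34F replicate 3 stood above the rest. DOK1, a docking protein that dampens RAS signalling, had a log2 fold change of 0.20 and ranged from 3.46 FPKM in WT replicate 2 to 7.45 FPKM in S34F replicate 2.

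**Figure D5:**
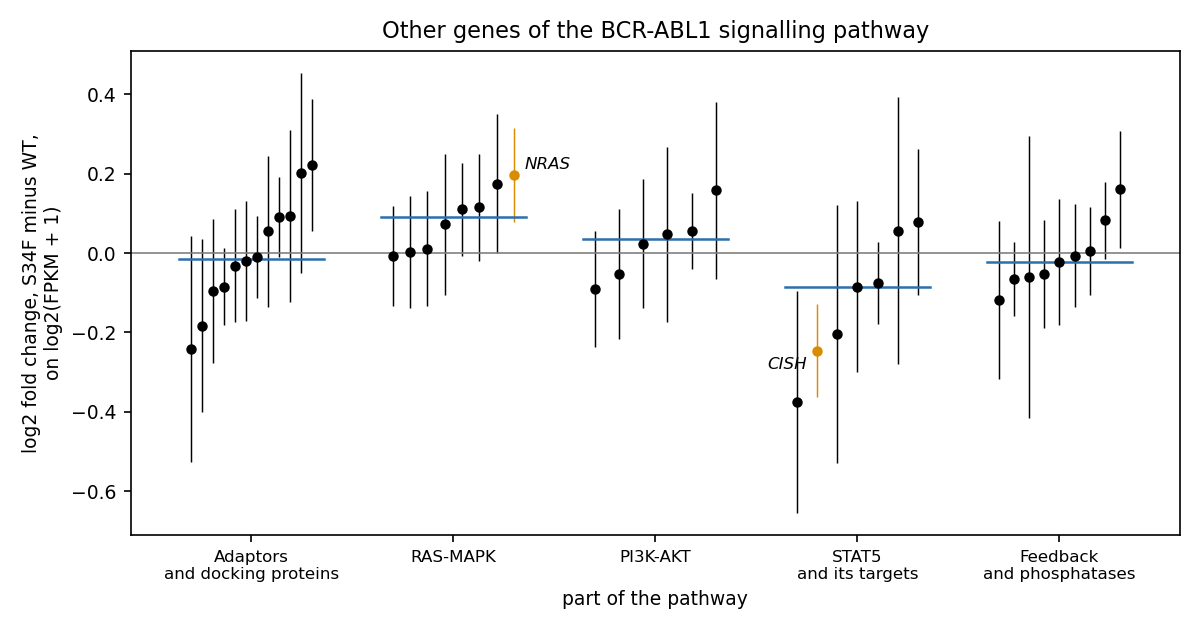
Log2 fold change of S34F over WT on log2(FPKM + 1) with its standard error for the 42 tested genes of the pathway list, by part of the pathway, with a blue line at each median. Orange points mark NRAS and CISH, whose groups did not overlap, and 0 of the 42 had an unadjusted p under 0.05 from limma.

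The members were the leading copies of several families. Of 20 close paralogs listed, 18 were in the table and 9 passed the filter, with 0 at an unadjusted p under 0.05 from limma. The mean of ABL1 was 43.5 FPKM beside 1.85 for ABL2, that of BCR 7.28 beside 0.123 for ABR, that of CRKL 93.6 beside 7.64 for CRK, and that of PTPN11 10.1 beside 0.435 for PTPN6. GAB2 had 11.3 FPKM beside 0.575 for GAB1 and 1.01 for GAB3, GRB2 26.3 beside 4.34 for GRAP2, and SHC1 23.1 beside 3.10 for SHC2. For SOS1 the levels lay close, with 1.33 FPKM beside 0.894 for SOS2. Of the SRC family kinases, FYN had a mean of 6.47, YES1 of 4.06 and SRC of 0.2995 FPKM, beside 15.4 for LYN, and LCK and BLK were not analysed here. GRAP, SHC3 and FGR were at or under the level of 3 fragments in every library.

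PIM2, the closest relative of PIM1 in level with a mean of 64.0 FPKM, was at 64.3, 61.3 and 55.3 FPKM in S34F and at 71.2, 72.2 and 60.0 FPKM in WT. The groups of PIM2 overlapped, and within each group the library numbered 3 was the lowest, as for PIM1. Its log2 fold change was -0.16 (adjusted p = 1 from limma). PIM3 lay at a mean of 28.0 FPKM with a log2 fold change of 0.07 (adjusted p = 1 from limma), and YES1 had one of 0.21 (adjusted p = 1 from limma). Both had groups that did not overlap, higher in S34F, for PIM3 by 27.8 against 28.4 FPKM. They were 2 of the 9 paralogs tested, or 22.2%, beside 7.38% of all genes. Under the filter, and so outside the main fit, PTPN6 was lower in every S34F library than in any WT library, and GAB1 was higher. Of the other pathway list genes under the filter, DOK2 was lower and PIK3CA higher in the same way. Without the filter the groups did not overlap for 6.38% of all 31142 genes.

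The genes whose log2(FPKM + 1) followed BCR and ABL1 most closely over the 6 libraries are given as a description. For BCR they were AC005833, TBC1D20 and AL589880, with Pearson's r of 0.988, 0.987 and 0.985, and 129 genes had an r above 0.9. For ABL1 they were PSMA7, a proteasome subunit, PGBD1 and KDM5B, with 0.999, 0.997 and 0.995, and 399 genes had an r above 0.9. The 6 points share the 3 replicate numbers, and the libraries numbered 3 stood apart from the rest.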

How the data were processed

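Total RNA of 6 samples was sequenced (Illumina), 3 S34F and 3 WT. The authors deposited 1 table of FPKM per gene and library, titled as counts but with FPKM in its headings, and 100% of its nonzero values were not whole. The labels' processing notes name StringTie and edgeR, without a role. Aligner, genome build and annotation are not given in the sources used here. The table's fold changes, p-values, q-values and calls by the authors were not used. The comparison of S34F with WT was fitted in limma on log2(FPKM + 1), with moderated (empirical Bayes) variances, a mean-variance trend and Benjamini-Hochberg adjustment over the 10942 genes with a mean of at least 1 FPKM, without a block. A gene was called where it differed more than 1.5-fold at an unadjusted p under 0.05. A test for counts could not be run, since the table holds none. Single values were compared by exact two-sided permutation tests.

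Depth was approximated from the FPKM of 7995 single-exon genes, which cluster at the value of 1 fragment, and gave 20.5 to 26.1 M fragments. Levels of 3 fragments were taken as the limit of detection, which covers counting error only. No pair of libraries held identical values. The deviations from the group mean correlated across genes at 0.212, 0.174 and 0.38 for equal replicate numbers 1, 2 and 3. Each exceeded 0.1 and the study speaks of pairs of independent RNA samples. The numbers therefore served as pairs in the replicate block, the sign-flip and the differences within pairs. The main fit, with its p-values, intervals and calls, did not use the pairs. S34F replicate 2 with WT replicate 1 gave 0.197, and S34F replicate 1 with WT replicate 2 gave 0.134. These unequal numbers also exceeded 0.1, so that the deviations do not tell replicates 1 and 2 apart and do not establish the pairs.

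The 10 genes and all lists were chosen with earlier results of these data known. Some genes of the planned lists are not reported here, and counts leave them out. The genes named are the 10, their pseudogenes and paralogs, genes of the pathway list with the largest changes or with groups that did not overlap, protein-coding neighbours of BCR and ABL1, and the 3 genes most like each of the 2. Coordinates and exons are from GENCODE 29 (GRCh38), which holds 31002 of the 31142 identifiers, and promoters from RefSeq (GRCh38.p14). The limma script was tested on simulated data. Alternatives were other scalings, filters and pseudocounts, other variance settings, the replicate block, and libraries left out. The versions were limma 3.58.1 in R 4.3.3, and Python 3.11.15 with scipy 1.17.1, pandas 2.3.3, numpy 2.4.6 and matplotlib 3.10.9.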

Additional observations from a re-analysis of the deposited data

How the results depend on the processing

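Over all genes tested, 64 passed the fold change and p limits. That number was 122 with a pseudocount of 0.1 and 122 with 0.01, 22 with a mean of at least 5 FPKM, 186 without both libraries numbered 3, and 67 to 180 with 1 library left out, the highest being without S34F replicate 3. The number at an adjusted p under 0.05 from limma was 0, was 1 under upper quartile scaling and 8 without both libraries numbered 3, and ran from 0 to 3 with 1 library left out. Of the 10 genes, 0 passed the limits, 1 (GRB2) did with the replicate block, as did 87 of all 10942, and 0 to 1 did with 1 library left out (GRB2 without WT replicate 1 or 2, PIM1 without WT replicate 3). The replicate block changed no other call on the 10 genes, and raised the number of all genes at an unadjusted p under 0.05 from 262 to 443. For BCR over ABL1 with the replicate block, a sign-flip over the pairs gave an exact permutation p of 0.5, the smallest possible being 0.25. Groups did not overlap for 3 of the 10 genes, for 6 without both libraries numbered 3 and for 3 to 5 with 1 library left out, beside 7.38%, 51.5% and 12.1 to 33.9% of all genes. Pathway genes past the limits ran from 0 to 1, STAT5A without S34F replicate 1. Pathway genes at an unadjusted p under 0.05 from limma numbered 0 in the main fit. There was 1 under upper quartile scaling or quantile normalization, and there were 2 without the filter. Without both libraries numbered 3 there were 4, in a fit where 16.9% of all genes had such a p. The log2 ratio of BCR to ABL1 differed by -0.07, by -0.10 to -0.03 with 1 library left out and by -0.0098 without both libraries numbered 3. The log2 fold change of BCR was -0.019 under upper quartile scaling, which shifted the median of all genes to -0.04. With 1 library left out, BCR ran from 0.01 to 0.08, CRKL from -0.031 to 0.22, PTPN11 from -0.027 to 0.20, SHC1 from -0.10 to 0.048 (0.026 without S34F replicate 2, 0.048 without WT replicate 3) and LYN from -0.18 to 0.05 (0.05 without S34F replicate 3, WT replicate 1 or WT replicate 2). PIM1, GRB2 and GAB2 were negative under all 17 alternatives. ABL1 was positive under all 17, and SOS1 under 16, as it could not be fitted with a mean of at least 5 FPKM. The cause of these shifts was not tested, beyond the fewer samples or genes that an alternative keeps.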
